A study of Homo sapiens and Mus musculus with 100 samples.

Results

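The genes described here are 10 enzymes of fatty acid synthesis, desaturation and elongation. They are ACLY, ACACA, FASN, ACSS2, SCD, FADS1, FADS2, ELOVL2, ELOVL5 and ELOVL6, taken from the tables by symbol. The set was chosen with earlier results of these data known. All 10 are among the 28035 genes listed in the human tables. In mouse, 9 of them are among the 24940 genes listed. The symbol Scd is not listed there, and the mouse paralogs Scd1 and Scd2 were described in its place. The study set cells or mice deprived of riboflavin (vitamin B2, from which FMN and FAD are made), labelled B2_minus, against controls labelled Cont or Control. HepG2, a human liver tumour line, was sampled at days 3, 6, 9 and 12 as B2_minus and Cont. At day 12 it was also sampled in 4 crossed designs. These were B2_minus and Cont with and without an AhR inhibitor (AhRinh, 10 µM in the column names), B2_minus and Cont with and without an IDO/TDO inhibitor (IDO_TDOinh), B2_minus and Cont with an AhR guide RNA (AhR_gRNA) or a control guide RNA (Cont_gRNA), and Kyn and DMSO with and without AhRinh. AhR stands for aryl hydrocarbon receptor, which turns on genes when a ligand binds it, and IDO and TDO are the enzymes that open the tryptophan ring on the way to kynurenine. Caco-2, a line from a colon tumour that can take on enterocyte traits, was collected at day 9 as B2_minus and Cont. Hepatocytes of AhR-flox mice, labelled 4 weeks, were sampled as B2_minus and Cont with the adenovirus Ad_Cre or with Ad_Cont, so every hepatocyte group carries the floxed allele. Mouse liver was sampled as B2_minus and Control, with a label of 4 weeks. Each group held 3 libraries, except the liver groups with 4 columns each. Mouse strain, sex and age, the floxed exon, the guide site, the inhibitors' names, the dose of Kyn, and whether the guide RNA cells are a clone or a pool, are details not given in the sources used here.

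Fatty acids are built in the cytosol from acetyl-CoA. ACLY makes that acetyl-CoA from citrate and ACSS2 from acetate, ACACA carboxylates it to malonyl-CoA, and FASN assembles palmitate from both. ELOVL6 extends palmitate to stearate, and SCD places the first double bond to give palmitoleate and oleate. Polyunsaturated fatty acids of the diet take another branch, in which FADS2 and FADS1 add double bonds and ELOVL5 and ELOVL2 extend the chain. Liver is a main site of the pathway, and SREBP-1c, the product of SREBF1, is a known activator of most of its genes, together with the liver X receptors. The desaturases SCD, FADS1 and FADS2 draw electrons through cytochrome b5 from the flavoprotein CYB5R3, whose cofactor FAD comes from riboflavin.

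Promoters of 5 of the genes are shown because these genes carry the contrasts of the results: the desaturases SCD, FADS2 and FADS1 and the elongase ELOVL6 were lower in deprived HepG2 cells, and the elongase ELOVL5 was not. Each window runs 5′ to 3′ on the gene's strand from 250 bases before to 50 after a RefSeq start on GRCh38.p14. Capitals mark CACGTG and the 5 letters CCAAT, or ATTGG on the other strand.
SCD, plus strand, chr10:100346983-100347282: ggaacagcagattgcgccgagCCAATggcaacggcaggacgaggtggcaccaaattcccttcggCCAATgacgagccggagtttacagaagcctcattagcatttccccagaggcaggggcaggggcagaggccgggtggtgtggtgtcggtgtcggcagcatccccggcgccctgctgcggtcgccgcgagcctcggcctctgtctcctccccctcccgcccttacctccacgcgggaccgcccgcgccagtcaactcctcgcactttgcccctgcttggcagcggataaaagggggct
FADS2, plus strand, chr11:61816154-61816453: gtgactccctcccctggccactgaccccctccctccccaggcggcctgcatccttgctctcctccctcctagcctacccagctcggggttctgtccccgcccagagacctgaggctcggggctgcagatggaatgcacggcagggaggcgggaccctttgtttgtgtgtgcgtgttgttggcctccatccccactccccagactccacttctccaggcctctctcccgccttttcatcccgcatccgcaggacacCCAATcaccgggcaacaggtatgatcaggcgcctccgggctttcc
FADS1, minus strand, chr11:61816954-61817253: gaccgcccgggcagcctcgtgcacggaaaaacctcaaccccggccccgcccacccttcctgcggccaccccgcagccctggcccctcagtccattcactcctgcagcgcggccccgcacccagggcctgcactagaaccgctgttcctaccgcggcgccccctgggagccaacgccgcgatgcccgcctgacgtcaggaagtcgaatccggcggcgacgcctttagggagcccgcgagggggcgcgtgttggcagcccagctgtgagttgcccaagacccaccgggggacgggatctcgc
ELOVL6, minus strand, chr4:110198566-110198865: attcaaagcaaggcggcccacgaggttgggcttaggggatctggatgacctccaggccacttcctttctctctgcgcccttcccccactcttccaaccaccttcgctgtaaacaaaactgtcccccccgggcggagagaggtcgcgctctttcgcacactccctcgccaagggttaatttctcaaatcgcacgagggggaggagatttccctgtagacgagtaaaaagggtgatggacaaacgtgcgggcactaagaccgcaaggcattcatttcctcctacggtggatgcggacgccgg
ELOVL5, minus strand, chr6:53348901-53349200: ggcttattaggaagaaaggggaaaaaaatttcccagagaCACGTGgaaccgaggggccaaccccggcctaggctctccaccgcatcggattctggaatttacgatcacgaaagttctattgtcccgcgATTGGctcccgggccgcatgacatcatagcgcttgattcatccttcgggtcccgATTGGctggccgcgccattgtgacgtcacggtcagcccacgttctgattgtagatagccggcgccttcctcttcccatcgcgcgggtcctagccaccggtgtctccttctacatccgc
SCD held CCAAT at −229 and −186 from the start, FADS2 held it at 6 after the start, and ELOVL5 held ATTGG at −122 and −68 and CACGTG at −211. FADS1 and ELOVL6 held no such letters in this window. The FADS2 window belongs to a start other than that of any FADS2 transcript counted. In the time course, Caco-2, AhR inhibitor and IDO/TDO inhibitor tables that transcript begins at 61828033, outside the window. In the guide RNA and Kyn tables it begins at 61816203, inside the window but before its RefSeq start. That position is the RefSeq start of another FADS2 window, chr11:61815953-61816252, not printed here. This other window held neither CCAAT nor CACGTG on either strand. The counted SCD, FADS1 and ELOVL6 transcripts begin inside their windows at 100347015, 61817057 and 110198664. ELOVL5 in the time course begins inside its window at 53349179. Distances above are from the RefSeq start, not from these counted starts.

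Of the 10 genes, 9 had a RefSeq window, FASN being the gene without an entry, and motifs were searched on both strands in every window of a gene. CCAAT, the letters of the CCAAT box, was found in 6 of the 9 genes and in 34.6% of all 35116 windows. GCGTG, the core letters of the AhR response element, was found in 6 of the 9 genes and in 36.5% of all windows. CACGTG, the palindromic E-box, was found in 1 of the 9 genes, ELOVL5, and in 7.26% of all windows. TCACNCCAC, a form of the sterol response element, was found in none of the 9 genes and in 1.13% of all windows. A gene with several windows has more chances of a match than a single window, and a match is a description of letters only. SCD lies on chromosome 10 (100347015 to 100364831, plus strand) and ELOVL6 on chromosome 4 (110049073 to 110198664, minus strand), as the tables give them on hg38. FADS1 (61799625 to 61817057, minus strand) and FADS2 (61828033 to 61867354, plus strand) are neighbours on chromosome 11. In the guide RNA and Kyn tables another FADS2 transcript is listed, which begins at 61816203 and overlaps FADS1 on the opposite strand by 855 bases. Whether strand was used in counting is not given, so in those tables reads of the overlap cannot be assigned to either gene.

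Each value is TPM (reads divided by transcript length, scaled to a fixed total) from a kit that reads 3′ ends, so levels are set side by side between samples and never between genes. Differences are in log2(TPM + 1) with their standard error, and means of TPM carry SD with n = 3 libraries unless stated. Recovered reads numbered 4049600 to 19644000 per library. The labels do not say whether replicates were separate cultures or animals, so each p-value reflects the spread among these libraries alone, and that spread may be technical. Where groups are said not to overlap, the listed values alone are described. The share of all genes without overlap was not counted. The 7 hepatocyte markers used to check the cells (ALB, APOA1, TTR, TF, SERPINA1, FGB, APOB) were all above 0 in every HepG2 group. Their summed TPM was 5560 to 5898 in deprived and 6451 to 6507 in control cells at day 3, 6099 to 7151 and 10064 to 10586 at day 6, 6977 to 7782 and 19556 to 20752 at day 9, and 7083 to 7438 and 25166 to 26362 at day 12. Other lists moved too at day 12, with 34.5 to 37.9 TPM in deprived and 62.5 to 66.7 TPM in control cells for 8 enterocyte markers, 10.1 to 10.6 and 4.72 to 5.46 TPM for 6 macrophage markers, and 299 to 303 and 241 to 255 TPM for 4 cholangiocyte markers. The markers thus moved with deprivation, and their part in the results below was not tested. In bulk samples fewer cells of a type and less RNA per cell cannot be told apart.

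In HepG2, 9 of the 10 genes were lower in deprived than in control cells at day 6 and again at day 9. ELOVL5 was the exception on both days. At day 9 the acetyl-CoA-forming ACLY stood at 27.2, 26.3 and 29.4 TPM in the 3 deprived libraries, against 57.2, 47.6 and 54.6 TPM in the 3 control libraries. The same step from acetate, ACSS2, stood at 9.92, 6.78 and 9.43 TPM in the 3 deprived libraries, against 21.7, 20.1 and 19.5 TPM in the 3 control libraries. FASN, the palmitate synthase, stood at 12.9, 14.0 and 15.6 TPM in the 3 deprived libraries, against 37.7, 36.3 and 33.1 TPM in the 3 control libraries. In these 3 genes every deprived library lay below every control library. The log2 differences were −0.91 ± 0.07, adjusted p = 1.9e-10 for ACLY, −1.16 ± 0.10, adjusted p = 3.1e-09 for ACSS2, and −1.28 ± 0.07, adjusted p = 3.4e-12 for FASN. ACACA, the carboxylase, was lower by 0.53 ± 0.09 (adjusted p = 3e-05), the least of the 4 synthesis genes. It stood at 3.00, 3.02 and 2.87 TPM in the 3 deprived libraries, against 5.46, 4.31 and 4.44 TPM in the 3 control libraries.

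At day 9 the desaturases SCD and FADS2 lay further below their controls than the synthesis genes did, and FADS1 about as far as FASN. SCD, which makes oleate, stood at 51.4, 45.7 and 50.1 TPM in the 3 deprived libraries, against 163, 149 and 167 TPM in the 3 control libraries at day 9, a log2 difference of −1.68 ± 0.05, adjusted p = 3.4e-17. The deprived mean was 30.7% of the control mean. FADS2, the entry desaturase of the polyunsaturated branch, stood at 6.27, 5.87 and 5.57 TPM in the 3 deprived libraries, against 26.9, 24.6 and 30.1 TPM in the 3 control libraries. Its difference of −2.03 ± 0.06 (adjusted p = 8e-17) left 21.7% of the control mean. FADS1, which acts later in that branch, stood at 21.5, 19.1 and 21.2 TPM in the 3 deprived libraries, against 56.2, 53.2 and 50.2 TPM in the 3 control libraries, a difference of −1.33 ± 0.06, adjusted p = 4.6e-14. None of the 3 desaturases had overlapping groups at day 9.

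The elongases did not move together. ELOVL6, which extends palmitate, stood at 4.69, 4.61 and 4.54 TPM in the 3 deprived libraries, against 18.4, 19.8 and 19.1 TPM in the 3 control libraries at day 9 (−1.84 ± 0.09, adjusted p = 3e-13) and at 3.08, 4.20 and 4.21 TPM in the 3 deprived libraries, against 17.8, 16.4 and 18.9 TPM in the 3 control libraries at day 12 (−1.96 ± 0.09, adjusted p = 6.3e-14). Deprived cells held 21.7% of the control mean at day 12, the lowest share of the 10 genes that day. ELOVL2, which extends polyunsaturated chains, stood at 20.4, 21.5 and 23.1 TPM in the 3 deprived libraries, against 55.9, 56.8 and 53.9 TPM in the 3 control libraries at day 12, a difference of −1.32 ± 0.08, adjusted p = 1.6e-12. For both genes the control level was higher at day 12 than at day 3: ELOVL6 averaged 17.7 ± 1.25 TPM in day 12 controls and 10.0 ± 0.750 TPM in day 3 controls, and ELOVL2 averaged 55.5 ± 1.48 TPM in day 12 controls and 26.3 ± 2.13 TPM in day 3 controls. ELOVL2 in deprived cells averaged 24.7 ± 2.83, 24.4 ± 0.742, 23.4 ± 0.897 and 21.7 ± 1.35 TPM at days 3, 6, 9 and 12, and its day 12 against day 3 difference did not pass the test (−0.18 ± 0.08, adjusted p = 0.0546). So for ELOVL2 the gap between the groups widened mainly on the control side. ELOVL5, the other elongase of the polyunsaturated branch, stood at 27.1, 29.6 and 29.6 TPM in the 3 deprived libraries, against 25.5, 23.1 and 23.7 TPM in the 3 control libraries at day 12 and was higher, by 0.25 ± 0.08, adjusted p = 0.0162. That call was lost under quantile normalization (adjusted p = 0.131), with voom (adjusted p = 0.124), and without replicate 2 of the controls, replicate 2 of the deprived cells or replicate 3 of the deprived cells (adjusted p = 0.055 to 0.0623). At day 9 the ELOVL5 difference was −0.13 ± 0.08, adjusted p = 0.195, and it passed under quantile normalization (−0.22, adjusted p = 0.0255), with voom (−0.22, adjusted p = 0.0142) and without replicate 3 of the deprived cells (adjusted p = 0.0327).

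**Figure D1:**
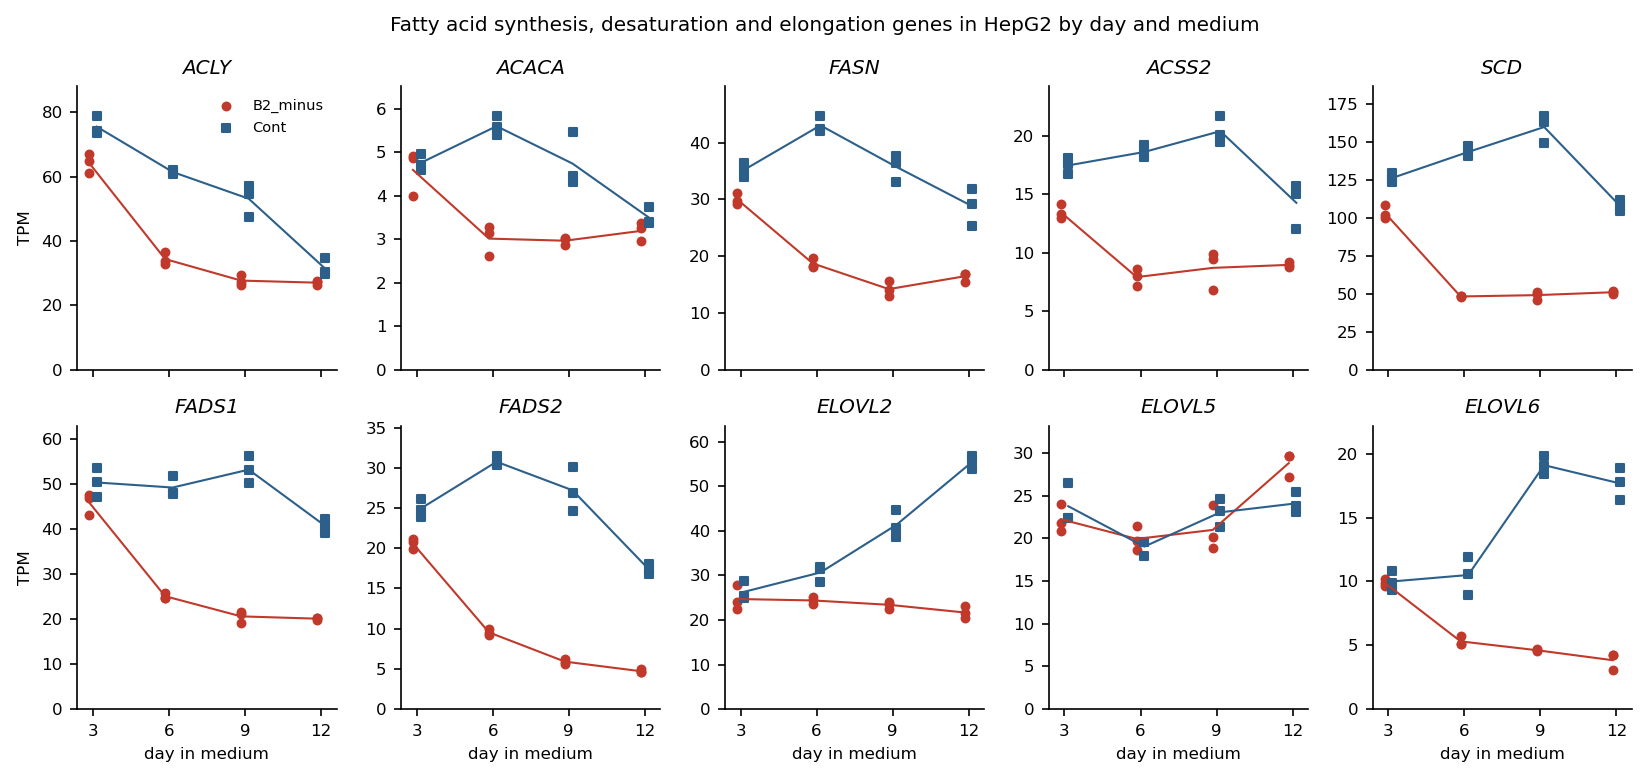
TPM of each of the 10 genes in HepG2 cells at days 3, 6, 9 and 12, one panel per gene, with a point for each library (red circles B2_minus, blue squares Cont) and lines through the group means. Deprived SCD and FADS2 lie below the controls at day 3, by a small margin, and further below from day 6 on, the ELOVL2 and ELOVL6 controls climb while deprived cells do not, and the ELOVL5 groups stay close.

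Counted over the set, 3 of the 10 genes were lower at day 3, against 2% of all 12488 genes tested in that table. At day 6 there were 9 lower, against 14% of all genes, at day 9 there were 9 lower, against 19.7%, and at day 12 there were 8 lower, against 18.4%, and 1 higher, against 34%. The median log2 difference of the 10 genes was −0.18, −0.90, −1.22 and −0.88 at the 4 days, while that of all genes was 0.02, 0.03, 0.06 and 0.10. The 3 genes already lower at day 3 were SCD with 109, 102 and 99.7 TPM in the 3 deprived libraries, against 129, 126 and 124 TPM in the 3 control libraries (−0.29 ± 0.05, adjusted p = 0.00138), FADS2 (−0.26 ± 0.06, adjusted p = 0.0186) and ACSS2 (−0.35 ± 0.10, adjusted p = 0.0468). SCD kept its call without each library in turn. FADS2 lost it without replicate 1 or 3 of the controls or replicate 1 or 2 of the deprived cells (adjusted p = 0.052 to 0.0924). ACSS2 lost it whichever of the 6 libraries was left out (adjusted p = 0.0703 to 0.142), with a pseudocount of 0.1 (adjusted p = 0.0546), with no filter on low values (adjusted p = 0.102) and with the replicate number as a block (adjusted p = 0.0525). ACLY (−0.23 ± 0.07, adjusted p = 0.0522) passed with that block (adjusted p = 0.0496), and ACLY and FASN passed with voom.

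For SCD the log2 differences were −0.29, −1.55, −1.68 and −1.06 at days 3, 6, 9 and 12, and for FADS2 they were −0.26, −1.59, −2.03 and −1.69. In the synthesis genes the differences were largest at days 6 and 9. ACLY had −0.23, −0.82, −0.91 and −0.21, and FASN had −0.22, −1.16, −1.28 and −0.77. ELOVL6 differed from this, with −0.01, −0.86, −1.84 and −1.96. ACACA had −0.04, −0.72, −0.53 and −0.10 and did not pass the test at day 12 (adjusted p = 0.341), though voom called it lower there (−0.27, adjusted p = 0.00862). ACLY still passed at day 12 (adjusted p = 0.0113) with 27.4, 27.4 and 26.2 TPM in the 3 deprived libraries, against 34.6, 29.7 and 30.3 TPM in the 3 control libraries, but not without replicate 1 of the controls (adjusted p = 0.0933). The remaining 2, ACSS2 and FADS1, had −0.35, −1.14, −1.16 and −0.61 and −0.13, −0.94, −1.33 and −0.99.

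The deprivation difference was then set between days in an interaction term, day 12 minus day 3. It was more negative at day 12 for 6 of the 10 genes, against 13.9% of all genes, and more positive for 1, against 23.8%. The 6 were ELOVL6 (−1.95 ± 0.13, adjusted p = 1.2e-10), FADS2 (−1.43 ± 0.09), ELOVL2 (−1.23 ± 0.11), FADS1 (−0.86 ± 0.09), SCD (−0.78 ± 0.07) and FASN (−0.54 ± 0.11). ELOVL5 was the 1 gene that moved the other way (0.34 ± 0.12, adjusted p = 0.0285), a call lost with no filter on low values, under quantile normalization and with voom. ACLY (0.02 ± 0.10, adjusted p = 0.902) and ACACA (−0.06 ± 0.12, adjusted p = 0.741) did not pass, nor did ACSS2 (−0.26 ± 0.14, adjusted p = 0.169), which passed as more negative under quantile normalization (−0.36, adjusted p = 0.0492) and with voom (−0.39, adjusted p = 0.0131). The ELOVL5 call was also lost without replicate 2 of the day 3 controls, replicate 2 or 3 of the day 3 deprived cells, replicate 2 or 3 of the day 12 controls or replicate 2 or 3 of the day 12 deprived cells (adjusted p = 0.0504 to 0.0943), and ACSS2 passed without replicate 3 of the day 12 controls (adjusted p = 0.0421).

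Control cells themselves changed over the course. Between day 12 and day 3 controls, 7 of the 10 genes were lower at day 12, against 46.8% of all genes, and 2 were higher, against 20.1%. The all-gene median of that comparison was −0.21, and relative to it the members' median was −0.08, or −0.02 under quantile normalization. The 2 higher genes were ELOVL2 (1.05 ± 0.08, adjusted p = 3.1e-11) and ELOVL6 (0.76 ± 0.09, adjusted p = 2e-07). ACLY fell most, by 1.24 ± 0.07, with 34.6, 29.7 and 30.3 TPM in the 3 day 12 libraries against 78.7, 74.2 and 73.6 TPM in the 3 day 3 libraries. Its log2 change in deprived cells was −1.22 ± 0.07. Under quantile normalization and with voom, 5 of the 7 lower calls in controls were lost, all but those of ACLY and FADS2, and ELOVL5 passed as higher (adjusted p = 0.0037 and 0.000425). The small SCD change (−0.23 ± 0.05) turned positive (0.07 and 0.04). In deprived cells 8 of the 10 genes were lower at day 12 than at day 3, against 35.3% of all genes, and 1 was higher, ELOVL5 (0.36 ± 0.08, adjusted p = 0.00106), against 14.4%. FADS2 had the largest of these changes, −1.92 ± 0.06, against −0.49 ± 0.06 in controls. The ACSS2 call in controls was lost without replicate 3 of either day (adjusted p = 0.0565 to 0.149), and in deprived cells ELOVL2 passed as lower without replicate 2 of day 3 or replicate 3 of day 12 (adjusted p = 0.0165 to 0.035).

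**Figure D2:**
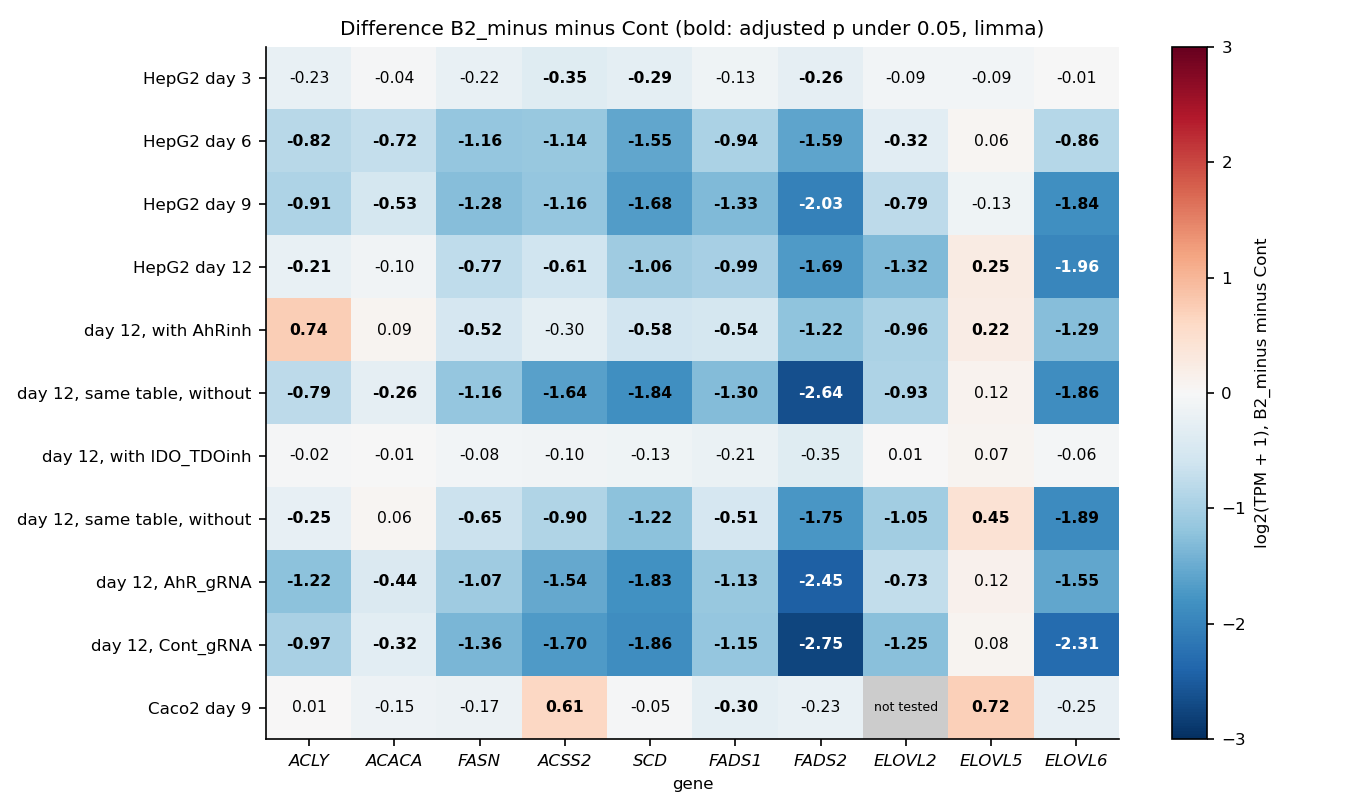
Log2(TPM + 1) differences of the 10 genes (columns) in 11 comparisons of B2_minus with its control (rows), 10 in HepG2 and 1 in Caco-2, with blue below and red above 0. Bold values passed an adjusted p of 0.05 and the grey cell was not tested. HepG2 cells without an added inhibitor are lower for most genes from day 6 on, the row with the IDO/TDO inhibitor has no bold value, and Caco-2 has 3.

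Untreated deprivation at day 12 was measured again in 3 further HepG2 tables, each with its own control libraries. Of the 10 genes, 9 were lower in the AhR inhibitor table without AhRinh (16.9% of all genes were lower), 8 lower and 1 higher in the IDO/TDO inhibitor table without the inhibitor (14.3% and 53.6% of all genes), and 9 lower with Cont_gRNA (17.1%). The all-gene medians of these tables were 0.23, 0.30 and 0.20, and relative to them the members' medians were −1.46, −1.07 and −1.51. Over the 4 day 12 comparisons, 8 genes were called lower each time, ACLY, FASN, ACSS2, SCD, FADS1, FADS2, ELOVL2 and ELOVL6. Their ranges were −0.97 to −0.21 for ACLY, −1.36 to −0.65 for FASN, −1.70 to −0.61 for ACSS2 and −1.86 to −1.06 for SCD. The branch of polyunsaturated fatty acids and ELOVL6 had −1.30 to −0.51 for FADS1, −2.75 to −1.69 for FADS2, −1.32 to −0.93 for ELOVL2 and −2.31 to −1.86 for ELOVL6. ELOVL6 and FADS2 thus had the most negative differences in every one of the 4 tables. ACACA was called lower in 2 of 4 (−0.32 to 0.06) and ELOVL5 higher in 2 of 4 (0.08 to 0.45), and neither of these 2 ELOVL5 calls held with voom (adjusted p = 0.124 at day 12 of the time course and 0.213 in the IDO/TDO inhibitor table). Where ACACA stood at 0.06, in the IDO/TDO inhibitor table, it was −0.23 under quantile normalization and −0.29 with voom. The ACACA call was lost in the AhR inhibitor table without replicate 1 or 2 of the controls or any of the 3 deprived libraries (adjusted p = 0.0572 to 0.136), and in the guide RNA table without replicate 2 of the deprived cells (adjusted p = 0.0508). The ACLY call in the IDO/TDO inhibitor table was lost without replicate 2 or 3 of the controls (adjusted p = 0.0537 to 0.0617).

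Adding the AhR inhibitor to deprived cells raised all 10 genes relative to deprived cells without it, against 18.6% of all genes. ACLY stood at 74.9, 74.2 and 71.5 TPM in the 3 deprived libraries with AhRinh, against 31.5, 30.2 and 31.6 TPM in the 3 without. SCD stood at 119, 111 and 111 TPM with AhRinh, against 45.7, 41.9 and 41.1 TPM without, and FADS2 at 20.8, 19.4 and 17.4 TPM with AhRinh, against 4.06, 4.84 and 4.16 TPM without. None of these groups overlapped. The differences were 1.22 ± 0.18, adjusted p = 0.00023 for ACLY, 1.39 ± 0.09, adjusted p = 4.1e-07 for SCD and 1.92 ± 0.16, adjusted p = 2.2e-06 for FADS2. ACSS2 rose by 1.39 ± 0.14, FADS1 by 0.99 ± 0.08, ELOVL6 by 0.86 ± 0.07 and FASN by 0.82 ± 0.10. The smallest rises were those of ELOVL5 (0.38 ± 0.09), ELOVL2 (0.34 ± 0.09) and ACACA (0.31 ± 0.10). According to the headers the libraries with AhRinh carry another folder and date than those without, so date and inhibitor cannot be told apart in this comparison. The ACACA call was lost without replicate 1 or 3 of either group (adjusted p = 0.0546 to 0.088).

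In control cells of the same table, 5 of the 10 genes were higher with AhRinh, against 14.6% of all genes. These were FADS2 (0.50 ± 0.16, adjusted p = 0.0245), ELOVL2 (0.38 ± 0.09), ELOVL6 (0.29 ± 0.07), ELOVL5 (0.28 ± 0.09) and FADS1 (0.23 ± 0.08, adjusted p = 0.0317). Here too the libraries with AhRinh carry another folder and date, so date and inhibitor cannot be told apart. With no filter on low values the calls of FADS1 and FADS2 were lost and 3 genes were called. Leaving out replicate 2 or 3 of the controls without AhRinh gave 2 calls, and leaving out replicate 2 of the controls with AhRinh gave 3. The libraries of Cont with AhRinh were spread, with 61.8, 42.7 and 31.7 TPM for ACLY and 58.5, 46.6 and 35.3 TPM for FADS2. Replicate 3 was the lowest of the group for both genes. Without replicate 1 of that group ACLY was called lower (−0.56). Over all genes replicate 3 also stood apart: its recovered reads gave 26.9 and 25.2 as the chi-square per gene from replicates 1 and 2, whose own pair gave 7.41. Without replicate 3, 7 genes were called for AhRinh in control cells, with ACSS2 (adjusted p = 0.046) and SCD (adjusted p = 0.0465) added. The calls of FADS1 and FADS2 were lost without replicate 2 or 3 of the controls or replicate 1 or 2 of those with AhRinh (adjusted p = 0.0619 to 0.125), and FASN passed without replicate 1 of the controls (adjusted p = 0.0494).

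Deprivation was then compared within the libraries that had AhRinh, which share a folder and date in the headers. There 6 of the 10 genes were lower, against 12.4% of all genes, and 2 were higher, against 45.1%; the all-gene median was 0.24 and the members' median relative to it −0.77. ELOVL6 stood at 10.8, 10.7 and 10.3 TPM in deprived libraries with AhRinh, against 27.5, 28.0 and 26.5 TPM in controls with AhRinh (−1.29 ± 0.07, adjusted p = 9.2e-09). SCD stood at 119, 111 and 111 TPM, against 194, 171 and 149 TPM in those controls (−0.58 ± 0.09, adjusted p = 0.00015), and FADS2 differed by −1.22 ± 0.16, adjusted p = 2.8e-05. Also lower were ELOVL2 (−0.96 ± 0.09), FADS1 (−0.54 ± 0.08) and FASN (−0.52 ± 0.10). ACLY was higher in deprived cells with AhRinh (0.74 ± 0.18, adjusted p = 0.0037), where without AhRinh it was lower (−0.79 ± 0.18, adjusted p = 0.00208), and voom did not call the first of these (0.44, adjusted p = 0.121). The other higher gene was ELOVL5 (0.22 ± 0.09, adjusted p = 0.0435), which was 0.01 under quantile normalization (adjusted p = 0.918) and −0.09 with voom. ACSS2 (−0.30 ± 0.14, adjusted p = 0.0813) passed as lower under quantile normalization, with voom, and without replicate 3 of the controls with AhRinh (−0.50, adjusted p = 0.000398), and ACACA did not (0.09 ± 0.10, adjusted p = 0.449). The ELOVL5 call was lost without replicate 1 or 2 of the controls or replicate 1 or 3 of the deprived cells (adjusted p = 0.091 to 0.166). Without replicate 3 of the controls with AhRinh the counts were 7 lower and 2 higher, and ACLY differed by 0.51 (adjusted p = 0.00376).

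The interaction term, the deprivation difference with AhRinh minus that without, passed for 7 of the 10 genes, all positive, against 12.9% of all genes. It was 1.53 ± 0.25, adjusted p = 0.00103 for ACLY, 1.42 ± 0.22 for FADS2, 1.33 ± 0.20 for ACSS2, 1.26 ± 0.13 for SCD, 0.76 ± 0.11 for FADS1, 0.65 ± 0.14 for FASN and 0.57 ± 0.10 for ELOVL6. ELOVL2 had a value near 0 (−0.03 ± 0.13, adjusted p = 0.895), its deprivation difference being −0.96 ± 0.09 with AhRinh and −0.93 ± 0.09 without. ELOVL5 (0.10 ± 0.12, adjusted p = 0.592) and ACACA (0.35 ± 0.14, adjusted p = 0.0838) did not pass. The deprivation differences with and without AhRinh come from libraries of different folders and dates. Date and inhibitor therefore cannot be told apart in part of this term. The summed hepatocyte markers were 5926 to 6441 TPM in deprived cells with AhRinh and 5478 to 5685 TPM without, against 23821 to 28341 TPM in controls with AhRinh and 24695 to 26870 TPM without. The enterocyte markers summed to 43.5 to 46.7 TPM in deprived cells with AhRinh and 26.0 to 30.0 TPM without, against 46.6 to 57.3 TPM in controls with AhRinh and 46.5 to 51.2 TPM without. The cholangiocyte markers summed to 237 to 242 TPM in deprived cells with AhRinh and 267 to 299 TPM without, against 163 to 166 and 150.4 to 171 TPM in those controls. The part of these markers in the result was not tested. Without replicate 3 of the controls with AhRinh the count stayed at 7, with 1.30 for ACLY (adjusted p = 0.000161), and ACACA passed without replicate 3 of the controls lacking AhRinh (adjusted p = 0.0275).

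With the IDO/TDO inhibitor the gap between deprived and control cells was small for every gene of the set. ELOVL6 stood at 20.1, 19.4 and 19.9 TPM in the 3 deprived libraries with the inhibitor, against 19.7, 22.4 and 20.1 TPM in the 3 control libraries with it. Without the inhibitor it stood at 4.83, 4.97 and 3.98 TPM in deprived libraries, against 17.0, 20.5 and 21.7 TPM in control libraries. The deprived libraries with the inhibitor overlapped the controls, and those without the inhibitor lay below every control library. FADS2 stood at 17.8, 15.9 and 17.6 TPM in deprived libraries with the inhibitor and 21.9, 22.3 and 22.0 TPM in controls with it, against 4.75, 5.28 and 6.43 TPM in deprived libraries without it and 20.9, 19.5 and 21.7 TPM in controls without it. Its deprived libraries with inhibitor remained below all controls. SCD stood at 120.5, 109 and 117 TPM in deprived libraries with the inhibitor and 52.4, 52.5 and 54.3 TPM in deprived libraries without it, and ELOVL2 at 31.9, 29.1 and 33.2 TPM with it and 14.5, 15.3 and 14.3 TPM without it.

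By limma, 0 of the 10 genes passed between deprived and control cells with the inhibitor, against 1.39% of all genes in either direction. At an unadjusted p under 0.05 there were 2, and voom on recovered reads called 2 lower, FADS1 (adjusted p = 0.0181) and FADS2 (adjusted p = 0.000929). FADS2 also passed under quantile normalization (adjusted p = 0.0394). The differences there were −0.35 ± 0.09, adjusted p = 0.0727 for FADS2, −0.21 ± 0.08 for FADS1, −0.13 ± 0.07 for SCD and −0.06 ± 0.10 for ELOVL6, and those of FASN, ACLY, ACACA, ACSS2, ELOVL2 and ELOVL5 were −0.08 ± 0.08, −0.02 ± 0.08, −0.01 ± 0.10, −0.10 ± 0.07, 0.01 ± 0.08 and 0.07 ± 0.07. In control cells the inhibitor gave 0 calls of 10, with 0 at an unadjusted p under 0.05 and 0 by voom, against 0.00872% of all genes. In deprived cells it raised 8 of the 10, against 16.1% of all genes, and lowered 1, against 49.6%. The all-gene median of that comparison was −0.26, and the members' median relative to it was 0.93. Rises were 1.90 ± 0.10, adjusted p = 7.7e-11 for ELOVL6, 1.49 ± 0.09 for FADS2, 1.11 ± 0.07 for SCD, 1.05 ± 0.08 for ELOVL2, 0.77 ± 0.07 for ACSS2, 0.57 ± 0.08 for FASN, 0.37 ± 0.08 for FADS1 and 0.21 ± 0.08, adjusted p = 0.0345 for ACLY. The ACLY call was lost with no filter (adjusted p = 0.0758), without any of the 3 deprived libraries lacking the inhibitor, and without replicate 1 or 3 of those with it (adjusted p = 0.0607 to 0.169). The lowered gene was ELOVL5 (−0.23 ± 0.07, adjusted p = 0.00975), whose sign turned to 0.02 under quantile normalization and 0.08 with voom. ACACA at −0.05 ± 0.10 likewise turned, to 0.20 and 0.25.

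The interaction with the IDO/TDO inhibitor was positive for 7 genes, against 12.2% of all genes, and negative for 1, against 41.5%. It was 1.83 ± 0.14, adjusted p = 2.2e-08 for ELOVL6, 1.40 ± 0.13 for FADS2, 1.10 ± 0.10 for SCD, 1.05 ± 0.11 for ELOVL2, 0.80 ± 0.10 for ACSS2, 0.57 ± 0.12 for FASN and 0.30 ± 0.11, adjusted p = 0.0296 for FADS1. FADS1 lost its call with no filter (adjusted p = 0.0632) and without replicate 2 or 3 of the controls or replicate 1 or 3 of the deprived cells lacking the inhibitor, or replicate 1 of the controls or replicate 1 or 3 of the deprived cells with it (adjusted p = 0.0536 to 0.0773). The negative one was ELOVL5 (−0.37 ± 0.10, adjusted p = 0.00491), lost under quantile normalization (adjusted p = 0.2) and with voom (adjusted p = 0.687). ACLY (0.23 ± 0.12, adjusted p = 0.116) and ACACA (−0.07 ± 0.14, adjusted p = 0.711) did not pass. In deprived cells ELOVL6 rose by 1.90 with IDO_TDOinh and 0.86 with AhRinh, and ELOVL2 by 1.05 and 0.34, values from separate tables that were not tested against each other. The summed hepatocyte markers were 23932 to 24739 TPM in deprived cells and 27356 to 28083 TPM in controls with IDO_TDOinh, against 7411 to 7671 TPM in deprived cells and 26294 to 27683 TPM in controls without it. Here the markers moved together with the genes of the set, and their part in the result was not tested. ACLY passed this interaction without replicate 1 of the controls lacking the inhibitor or replicate 2 of the deprived cells with it (adjusted p = 0.0213 to 0.0243).

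**Figure D3:**
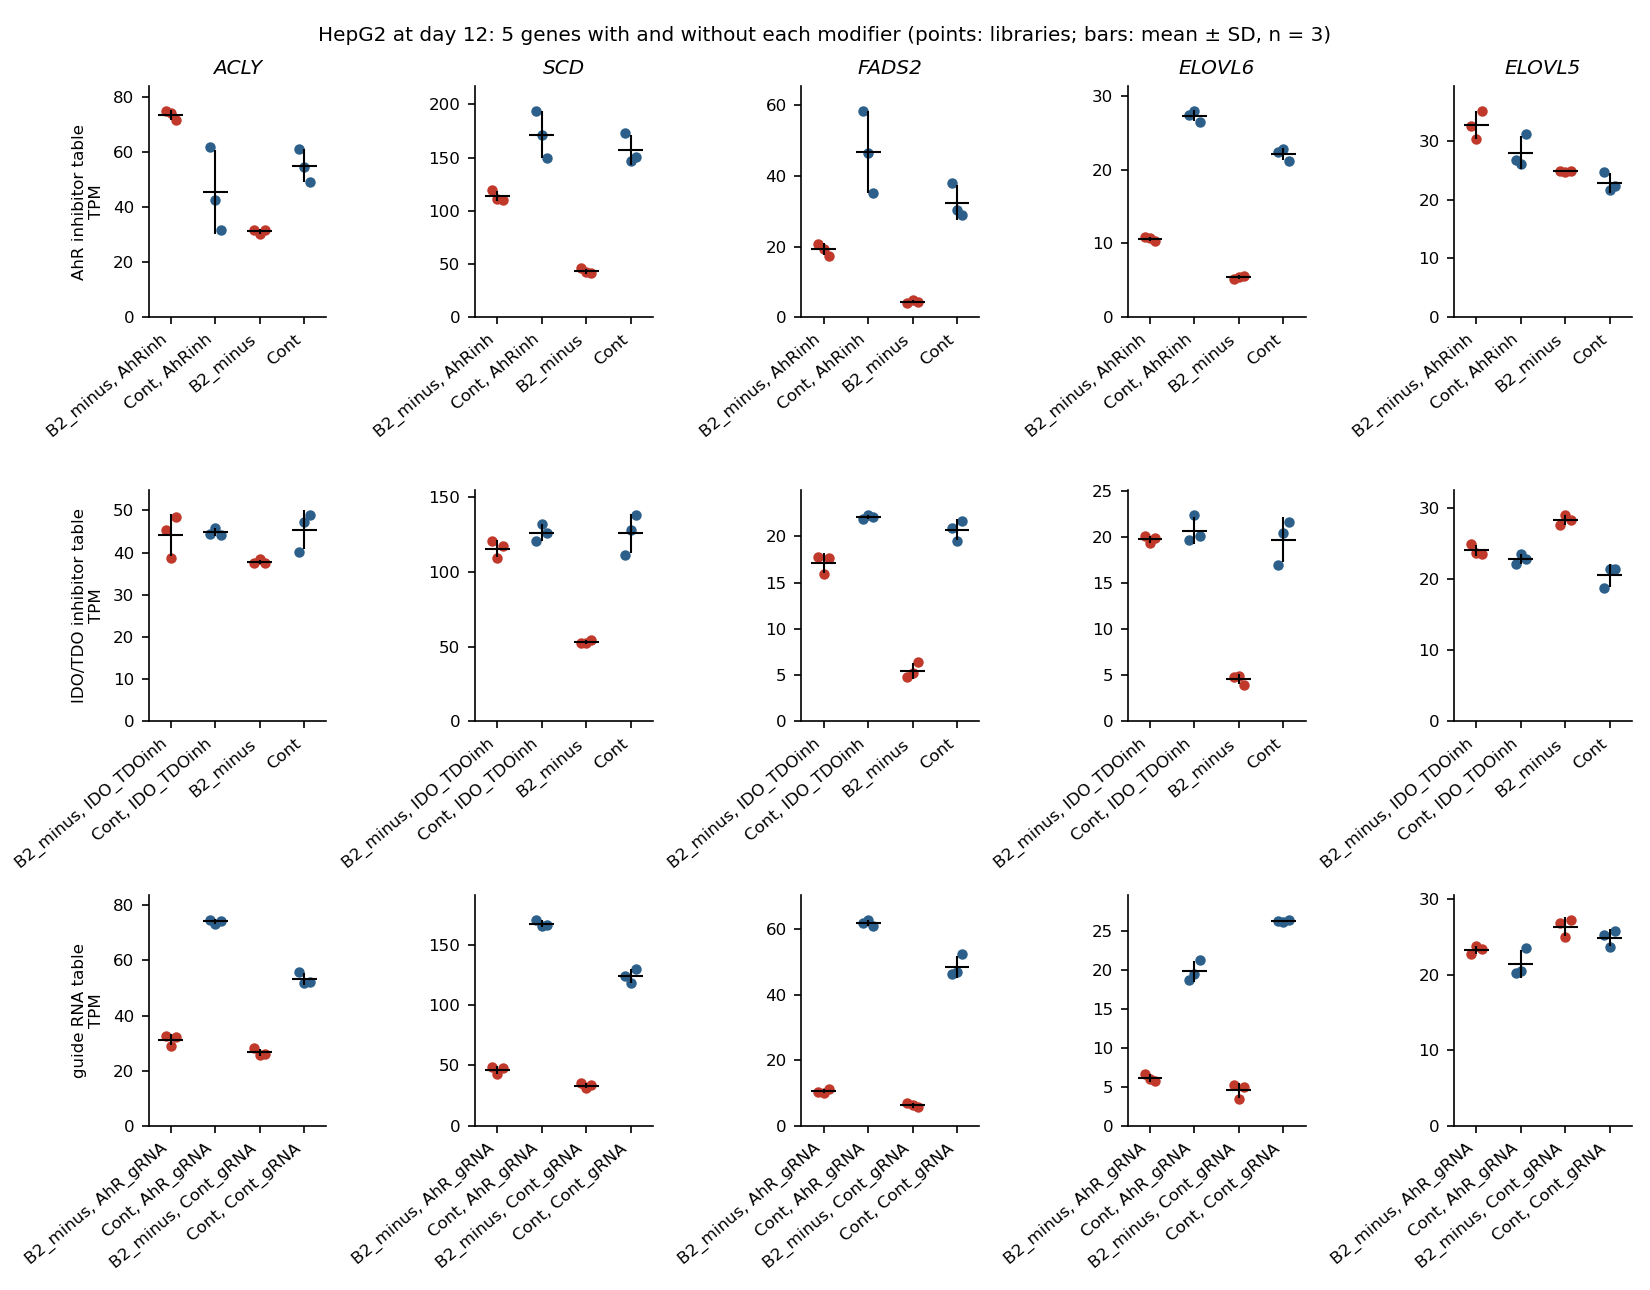
TPM of ACLY, SCD, FADS2, ELOVL6 and ELOVL5 at day 12 in the AhR inhibitor, IDO/TDO inhibitor and guide RNA tables, with a point for each library and bars at mean ± SD (n = 3). Deprived cells with the IDO/TDO inhibitor reach the control range for ELOVL6, those with the AhR inhibitor lie between the deprived and the control level for SCD, FADS2 and ELOVL6, and those with the AhR guide RNA stay near the deprived level.

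With the AhR guide RNA, deprivation lowered 9 of the 10 genes, as with the control guide RNA, against 15.6% of all genes. FADS2 stood at 10.3, 10.2 and 11.2 TPM in deprived libraries with AhR_gRNA, against 62.0, 62.8 and 60.9 TPM in control libraries with it (−2.45 ± 0.08, adjusted p = 3.9e-11). With Cont_gRNA it stood at 7.12, 6.33 and 5.62 TPM in deprived libraries, against 46.3, 46.8 and 52.4 TPM in control libraries (−2.75 ± 0.08, adjusted p = 4.8e-12). SCD stood at 49.1, 42.8 and 47.6 TPM in deprived libraries with AhR_gRNA, against 171, 165 and 166 TPM in control libraries with it. The groups did not overlap for either gene. SCD differed by −1.83 ± 0.06 with AhR_gRNA and −1.86 ± 0.06 with Cont_gRNA, FADS1 by −1.13 ± 0.08 and −1.15 ± 0.08, FASN by −1.07 ± 0.06 and −1.36 ± 0.06, and ACSS2 by −1.54 ± 0.08 and −1.70 ± 0.08. For ACLY these were −1.22 ± 0.06 and −0.97 ± 0.06, for ACACA −0.44 ± 0.10 and −0.32 ± 0.10, and for ELOVL2 −0.73 ± 0.07 and −1.25 ± 0.07. ELOVL6 had −1.55 ± 0.11 with AhR_gRNA and −2.31 ± 0.11 with Cont_gRNA. ELOVL5 did not pass with either guide (0.12 ± 0.07, adjusted p = 0.162, and 0.08 ± 0.07, adjusted p = 0.335). With AhR_gRNA it passed as higher without replicate 3 of the controls (adjusted p = 0.0379).

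The interaction with the guide passed for 3 genes, all positive, against 6.16% of all genes. They were ELOVL6 (0.76 ± 0.16, adjusted p = 0.00579), ELOVL2 (0.52 ± 0.09, adjusted p = 0.00238) and FASN (0.30 ± 0.08, adjusted p = 0.0264), and FASN lost its call without replicate 1 of the Cont_gRNA controls, replicate 1 or 3 of the deprived Cont_gRNA libraries, replicate 2 or 3 of the AhR_gRNA controls or replicate 1 or 3 of the deprived AhR_gRNA libraries (adjusted p = 0.0517 to 0.0677). FADS2 (0.31 ± 0.11, adjusted p = 0.0812) passed under quantile normalization (adjusted p = 0.0179) and with voom (adjusted p = 0.00776). For SCD the term was 0.04 ± 0.09, adjusted p = 0.831, for FADS1 0.02 ± 0.12, for ACSS2 0.16 ± 0.12 and for ACLY −0.25 ± 0.09, adjusted p = 0.0633, the last passing with the replicate block (adjusted p = 0.0474). ELOVL6 stood at 6.70, 5.94 and 5.69 TPM in deprived libraries with AhR_gRNA, against 18.7, 19.5 and 21.2 TPM in controls with it, and at 5.25, 3.46 and 5.01 TPM in deprived libraries with Cont_gRNA, against 26.3, 26.1 and 26.4 TPM in controls with it. Its control level was therefore the lower one with AhR_gRNA (−0.39 ± 0.11, adjusted p = 0.0125), as was that of ELOVL2 (−0.26 ± 0.07). FADS2 passed without replicate 1 of the deprived Cont_gRNA libraries (adjusted p = 0.0304).

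Set against Cont_gRNA directly, AhR_gRNA raised 7 of the 10 genes in deprived cells, against 7.53% of all genes. The largest was FADS2 (0.65 ± 0.08), followed by ACSS2 (0.49 ± 0.08), SCD (0.47 ± 0.06), ELOVL6 (0.36 ± 0.11, adjusted p = 0.0468), FASN (0.26 ± 0.06), ELOVL2 (0.26 ± 0.07) and ACLY (0.22 ± 0.06). The ELOVL6 call was lost with no filter on low values (adjusted p = 0.104), under quantile normalization (adjusted p = 0.0603) and with the replicate number as a block (adjusted p = 0.0505). Without replicate 2 of the deprived Cont_gRNA libraries, or replicate 1 or 3 of the deprived AhR_gRNA libraries, 4 genes were called. In control cells AhR_gRNA raised 5 genes, against 23.3% of all genes, and lowered 3, against 13.4%. Those raised were ACLY (0.47 ± 0.06), SCD (0.43 ± 0.06), FADS2 (0.35 ± 0.08), ACSS2 (0.33 ± 0.08) and ACACA (0.29 ± 0.10), and those lowered were the 3 elongases, ELOVL5 by 0.21 ± 0.07. AHR itself averaged 7.70 TPM in deprived cells with AhR_gRNA and 6.81 TPM with Cont_gRNA (0.17 ± 0.13, adjusted p = 0.479), and 4.71 and 5.14 TPM in control cells with AhR_gRNA and Cont_gRNA (−0.09 ± 0.13, adjusted p = 0.641). A 3′ read need not report a cut elsewhere in the gene, so this does not check the guide. The summed hepatocyte markers were 7457 to 7811 TPM in deprived and 19062 to 20167 TPM in control cells with AhR_gRNA, and 6228 to 6505 TPM in deprived and 24282 to 24821 TPM in control cells with Cont_gRNA. Single libraries decided several of these calls. In deprived cells those of ACLY, ELOVL2 and ELOVL6 were each lost on leaving out any of 4 libraries, always including replicate 2 with Cont_gRNA and replicates 1 and 3 with AhR_gRNA, with replicate 3 with Cont_gRNA as the other for ACLY, replicate 1 with Cont_gRNA for ELOVL2 and replicate 2 with AhR_gRNA for ELOVL6 (adjusted p = 0.0561 to 0.171). In control cells ACACA and ELOVL5 lost theirs without replicate 1 with Cont_gRNA or replicate 1 or 2 with AhR_gRNA, ACACA also without replicate 2 and ELOVL5 also without replicate 3 with Cont_gRNA (adjusted p = 0.0607 to 0.138).

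In the Kyn table, which holds no deprived group, Kyn lowered 1 of the 10 genes relative to DMSO, against 5.54% of all genes. That gene was FASN, with 32.1, 33.7 and 28.1 TPM in the 3 Kyn libraries, against 41.1, 41.9 and 38.3 TPM in the 3 DMSO libraries (−0.36 ± 0.08, adjusted p = 0.00947). SCD, FADS2 and ELOVL6, which were lower in deprived cells, differed by 0.09 ± 0.06, 0.25 ± 0.09 and −0.21 ± 0.10 and did not pass. ELOVL6 stood at 32.5, 24.5 and 26.8 TPM in Kyn libraries, against 32.7, 29.6 and 34.7 TPM in DMSO libraries, and these groups overlapped. At an unadjusted p under 0.05 there were 5 genes. Voom called 3 genes lower, FASN, ELOVL2 (−0.27, adjusted p = 0.0122) and ELOVL6 (−0.25, adjusted p = 0.0308). Leaving out replicate 1 of the Kyn libraries gave the same 3 by limma, with adjusted p = 0.039 for ELOVL2 and 0.038 for ELOVL6.

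With AhRinh present, Kyn raised 4 of the 10 genes relative to DMSO, against 1.74% of all genes. ELOVL6 stood at 45.1, 42.0 and 39.5 TPM in libraries with Kyn and AhRinh, against 26.9, 29.4 and 29.1 TPM in those with DMSO and AhRinh (0.55 ± 0.10, adjusted p = 0.00283). FADS2 stood at 14.9, 16.5 and 16.9 TPM, against 9.14, 11.2 and 10.7 TPM with DMSO and AhRinh (0.59 ± 0.09, adjusted p = 0.00173). Neither gene's groups overlapped. ACSS2 (0.31 ± 0.08, adjusted p = 0.0246) and SCD (0.22 ± 0.06, adjusted p = 0.023) were the other 2, and without replicate 1 of the DMSO libraries with AhRinh, or replicate 2 of the Kyn libraries with AhRinh, 2 genes were called. In the interaction term ELOVL6 (0.76 ± 0.13, adjusted p = 0.00376) and ACSS2 (0.41 ± 0.11, adjusted p = 0.0373) passed, against 2.11% of all genes higher. ACSS2 lost its call with no filter (adjusted p = 0.0758) and without replicate 2 or 3 of the DMSO libraries, any of the 3 Kyn libraries, replicate 1 or 3 of the DMSO libraries with AhRinh, or replicate 1 or 2 of the Kyn libraries with AhRinh (adjusted p = 0.05 to 0.0919). The all-gene median of the interaction was −0.12, and relative to it the members' median was 0.30. Among the libraries with AhRinh, SCD also lost its call without replicate 2 of DMSO or replicate 1 of Kyn, and ACSS2 without replicate 3 of DMSO (adjusted p = 0.0553 to 0.0897). ELOVL5 passed the interaction without replicate 2 of the Kyn libraries with AhRinh (adjusted p = 0.0281).

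AhRinh in DMSO cells gave 0 calls of 10 by limma, 0 at an unadjusted p under 0.05 and 0 by voom, with 0% of all genes called. In Kyn cells AhRinh raised 4 genes, against 4.36% of all genes, and lowered 1, against 17.6%; the all-gene median was −0.13 and the members' median relative to it 0.27. The raised genes were ELOVL6 (0.59 ± 0.10, adjusted p = 0.0008), ACSS2 (0.52 ± 0.08), FADS2 (0.32 ± 0.09) and FASN (0.31 ± 0.08), and the lowered one was ELOVL5 (−0.28 ± 0.07, adjusted p = 0.0119), a call lost under quantile normalization (adjusted p = 0.12) and with voom (adjusted p = 0.218). Leaving out replicate 3 of the Kyn libraries, or replicate 2 of the Kyn libraries with AhRinh, left 3 calls. Hepatocyte markers summed to 15841 to 16800 TPM with Kyn and AhRinh, 12454 to 13059 TPM with DMSO and AhRinh, 13332 to 14247 TPM with Kyn and 12676 to 13439 TPM with DMSO. They were highest in the same group as ELOVL6 and FADS2, and their part in the result was not tested. FADS2 lost its call without replicate 1 or 3 of the Kyn libraries or replicate 2 or 3 of those with AhRinh (adjusted p = 0.0706 to 0.0855), FASN without replicate 3 of Kyn or replicate 2 of Kyn with AhRinh (adjusted p = 0.0547 to 0.0578), and SCD passed without replicate 1 of Kyn or replicate 3 of Kyn with AhRinh (adjusted p = 0.0382 to 0.0441).

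In Caco-2 cells at day 9, 9 of the 10 genes could be tested, and 3 of them differed between deprived and control cells. ELOVL5 stood at 51.6, 52.9 and 50.1 TPM in the 3 deprived libraries, against 29.1, 30.3 and 33.3 TPM in the 3 control libraries and was higher (0.72 ± 0.07, adjusted p = 3.4e-05). ACSS2 stood at 43.5, 45.0 and 53.0 TPM in the 3 deprived libraries, against 28.4, 30.8 and 32.3 TPM in the 3 control libraries and was also higher (0.61 ± 0.09, adjusted p = 0.00041). FADS1 stood at 42.9, 45.3 and 40.4 TPM in the 3 deprived libraries, against 55.4, 51.1 and 52.8 TPM in the 3 control libraries and was lower (−0.30 ± 0.07, adjusted p = 0.00587). No library of one group reached the range of the other in these 3 genes. The counts were 2 of 9 higher, against 14.3% of all 11888 genes tested, and 1 of 9 lower, against 19.5%. In either direction 4011 of the 11888 genes were called, a share near that of the 9 genes. SCD stood at 85.9, 85.4 and 88.8 TPM in the 3 deprived libraries, against 83.5, 91.4 and 93.9 TPM in the 3 control libraries, overlapping groups that did not pass the test (−0.05 ± 0.06, adjusted p = 0.593). FADS2 differed by −0.23 ± 0.16, adjusted p = 0.294 and passed without replicate 1 of the controls (−0.42, adjusted p = 0.0349). ELOVL6 (−0.25 ± 0.14), FASN (−0.17 ± 0.10), ACACA (−0.15 ± 0.11) and ACLY (0.01 ± 0.08) did not pass. ELOVL2 was at 0 to 0.231 TPM (0 to 7 reads per library) and was not tested. HepG2 and Caco-2 stand in separate tables, so the difference between the lines was not tested. The 8 enterocyte markers of the list summed to 88.1 to 94.0 TPM in deprived and 140 to 148 TPM in control Caco-2 cells, and the 7 hepatocyte markers to 1369 to 1550 and 2493 to 2628 TPM, and their part in the result was not tested.

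In AhR-flox mouse hepatocytes with Ad_Cont, the 2 genes that passed were higher in deprived cells, both desaturases. Scd1, the main stearoyl-CoA desaturase of mouse liver, stood at 57.8, 59.6 and 63.2 TPM in deprived libraries with Ad_Cont, against 34.2, 32.5 and 30.7 TPM in control libraries with Ad_Cont (0.87 ± 0.09, adjusted p = 2.1e-05). Fads2 stood at 5.64, 6.50 and 7.83 TPM, against 4.19, 3.87 and 2.92 TPM in those controls (0.72 ± 0.17, adjusted p = 0.017). In both genes every deprived library lay above every control library. Fads2 rested on only 24 to 76 reads per library over the hepatocyte table. Among the 9 genes with a listed symbol, Fads2 was the 1 called, against 4.32% of all 12155 genes tested being higher. Its call was lost without replicate 3 of the Ad_Cont controls (0.60, adjusted p = 0.0714) or replicate 3 of the deprived Ad_Cont cells (0.61, adjusted p = 0.0593). Fads1 (0.23 ± 0.08, adjusted p = 0.0926) passed with voom (adjusted p = 0.0276) and without replicate 1 of the deprived Ad_Cont cells (adjusted p = 0.0141). Scd1 and Scd2 are paralogs and could share reads. Acly, Acaca, Fasn, Acss2, Elovl2, Elovl5 and Elovl6 had 0.01, 0.09, −0.05, 0.26, 0.05, −0.04 and 0.22, and Scd2 had 0.13 ± 0.15, adjusted p = 0.648.

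With Ad_Cre, 0 of the 9 genes passed between deprived and control hepatocytes by limma, against 0.329% of all genes in either direction. Of 11 genes with Scd1 and Scd2, 2 had an unadjusted p under 0.05, and voom called 0 of the 9. Scd1 stood at 41.7, 39.7 and 36.9 TPM in deprived libraries with Ad_Cre, against 36.8, 30.4 and 29.1 TPM in control libraries with Ad_Cre (0.29 ± 0.09, adjusted p = 0.21), with every deprived library above every control by a narrow margin. Voom called Scd1 higher there (0.32, adjusted p = 0.0338). Fads2 stood at 4.09, 3.63 and 5.66 TPM, against 4.46, 5.55 and 3.83 TPM in those controls, overlapping groups (−0.05 ± 0.17, adjusted p = 0.957). The interaction, the deprivation difference with Ad_Cre minus that with Ad_Cont, was −0.58 ± 0.12, adjusted p = 0.0646 for Scd1 and −0.76 ± 0.24, adjusted p = 0.203 for Fads2. By limma 0 of the 9 genes passed it, against 0.247% of all genes, with 2 of 11 at an unadjusted p under 0.05 and 0 of the 9 by voom. Scd1 passed it with voom (−0.57, adjusted p = 0.0026), without replicate 1 of the deprived Ad_Cont cells (adjusted p = 0.0333) and without replicate 3 of the Ad_Cre controls (adjusted p = 0.028).

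Ad_Cre against Ad_Cont called 0 of the 9 genes in deprived hepatocytes, against 1.03% of all genes, and 0 in control hepatocytes, against 0.0247%. At an unadjusted p under 0.05 these counts were 3 and 2 of 11, and voom called 0 of the 9 in both. Scd1 was lower with Ad_Cre in deprived hepatocytes (−0.60 ± 0.09, adjusted p = 0.00258). Ahr averaged 7.10 TPM in deprived cells with Ad_Cre and 10.2 TPM with Ad_Cont (−0.47 ± 0.09, adjusted p = 0.0225), and 7.79 and 9.65 TPM in control cells with Ad_Cre and Ad_Cont (−0.28 ± 0.09, adjusted p = 0.494). A 3′ read outside the floxed exon would not report its loss. The 5 hepatocyte markers listed in mouse summed to 8236 to 9302 TPM in deprived and 9592 to 9939 TPM in control hepatocytes with Ad_Cont. Other markers moved with deprivation in the same cells: the enterocyte list summed to 207 to 212 and 105 to 116 TPM, and the stellate list to 6.03 to 9.13 and 18.6 to 24.2 TPM. Their part in the result was not tested.

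In mouse liver 1 of the 9 genes passed, against 2.09% of all 10574 genes being higher. Elovl5 stood at 470.0, 636, 583 and 372 TPM in the 4 deprived livers, against 368, 297, 247 and 328 TPM in the 4 Control livers (0.72 ± 0.18, adjusted p = 0.0492). The lowest deprived value lay just above the highest Control value. The call did not hold with a pseudocount of 0.1 (adjusted p = 0.0508), with no filter (adjusted p = 0.112), under quantile normalization (adjusted p = 0.0873), with voom (adjusted p = 0.103), or on leaving out any liver other than column 4 of the deprived group (adjusted p = 0.063 to 0.152). Scd1 ranged widely within each group, with 349.7, 106, 467 and 563 TPM in deprived and 1037, 179.7, 492 and 1165 TPM in Control livers, and did not pass (−0.86 ± 0.76, adjusted p = 0.51). Fads2 had 370.2, 327, 251 and 384 TPM in deprived and 527, 391, 339 and 508 TPM in Control livers (−0.40 ± 0.18, adjusted p = 0.175). Fasn (0.46 ± 0.26), Acaca (0.28 ± 0.14), Acly (−0.01 ± 0.13), Acss2 (−0.16 ± 0.14), Fads1 (0.04 ± 0.16), Elovl2 (0.15 ± 0.14) and Elovl6 (−0.16 ± 0.19) did not pass, and Scd2 was below the filter. The all-gene median in liver was 0.14 and the members' median relative to it −0.10. The adipocyte markers summed to 0.162 to 52.7 TPM in deprived and 0.170 to 0.953 TPM in Control livers, so at least 1 deprived liver held adipocyte transcripts, and their part in the result was not tested.

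**Figure D4:**
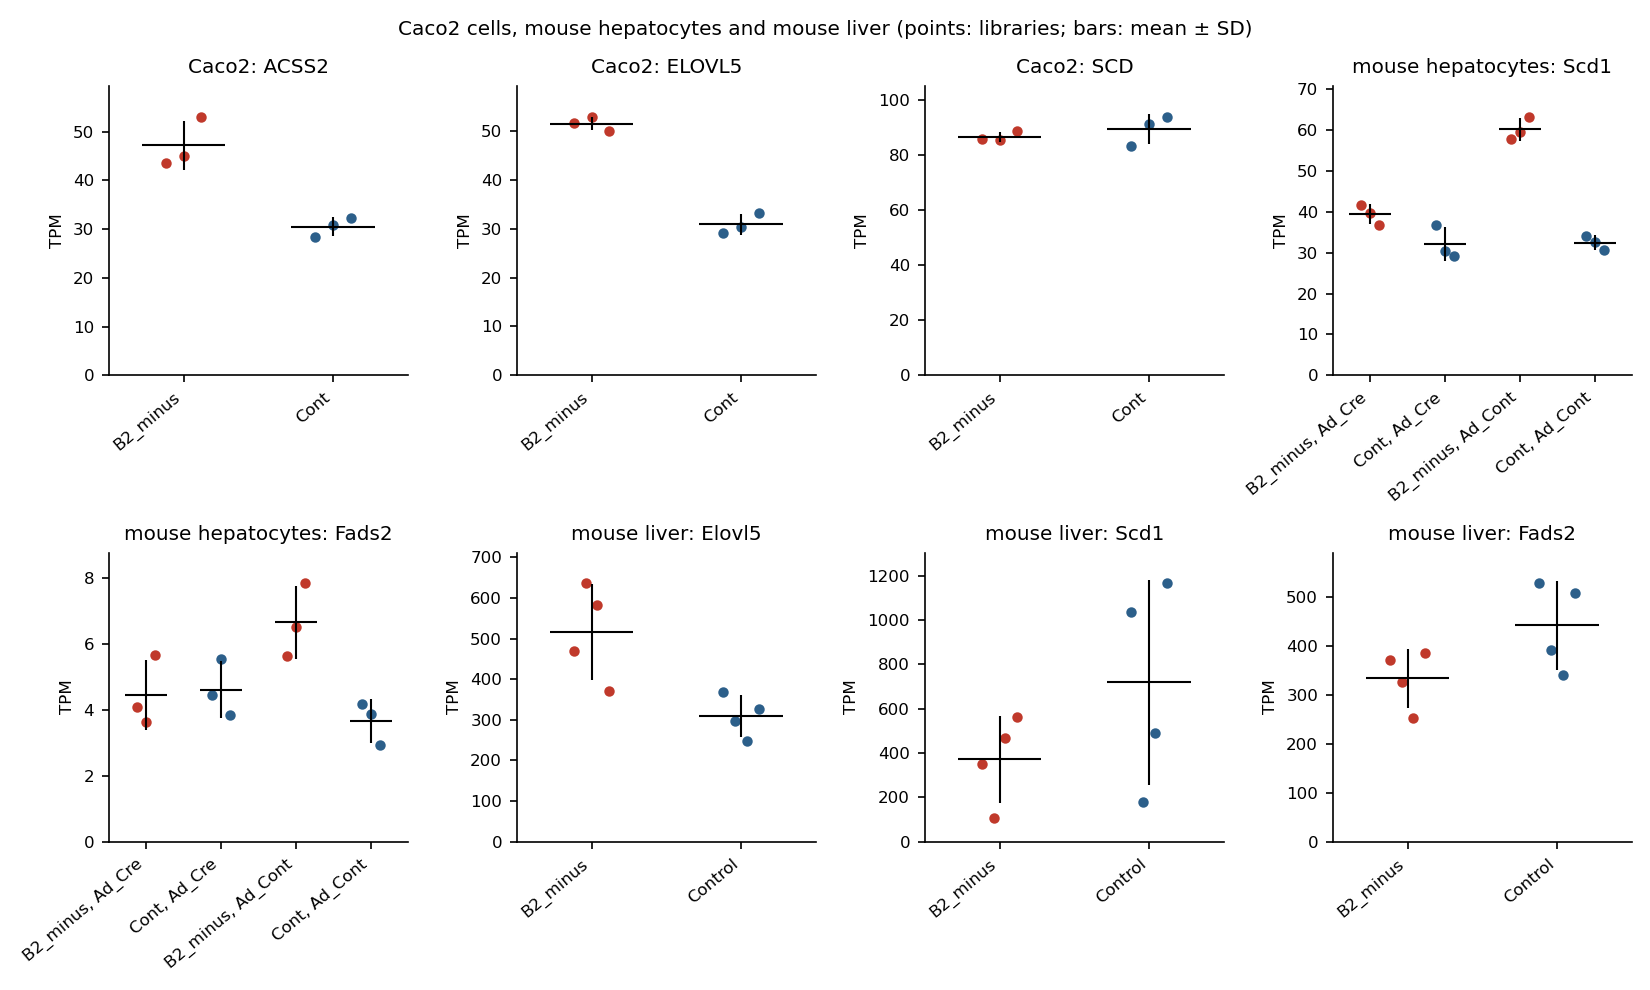
TPM by library, with bars at mean ± SD, for ACSS2, ELOVL5 and SCD in Caco-2 (n = 3), Scd1 and Fads2 in AhR-flox hepatocytes (n = 3), and Elovl5, Scd1 and Fads2 in mouse liver (n = 4). Scd1 is highest in deprived hepatocytes with Ad_Cont, while in liver its values run over 106 to 563 TPM in deprived and 179.7 to 1165 TPM in Control livers.

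Genes around the 10 enzymes were counted in 5 lists. The first, reported here for 4 genes, holds cholesterol synthesis and transport genes, which are known SREBP targets. All 4 (HMGCS1, SQLE, IDI1, STARD4) were lower in deprived HepG2 cells at days 3, 6, 9 and 12, against 2%, 14%, 19.7% and 18.4% of all genes. The median difference of the 4 was −1.26 at day 9 and −0.91 at day 12. HMGCS1, which makes HMG-CoA for the mevalonate pathway, had the lowest value on both days (−1.89 ± 0.06 and −1.47 ± 0.06). IDI1, an isomerase of the mevalonate pathway, had the highest (−1.04 ± 0.07 and −0.54 ± 0.07). HMGCS1 averaged 30.1 TPM in deprived and 114 TPM in control cells at day 9 (−1.89 ± 0.06, adjusted p = 1e-16), and its differences at days 3, 6 and 12 were −0.36, −1.41 and −1.47.

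Of all genes, 29.4% were higher and 19.7% lower at day 9, and 34% higher and 18.4% lower at day 12. Of 10 tested regulators, 1 was higher and 5 lower at day 9, and 2 higher and 6 lower at day 12. SREBF1 averaged 5.06 TPM in deprived cells at day 12, against 8.14 TPM in controls (−0.60 ± 0.09, adjusted p = 1.4e-05), and had −0.15, −0.46 and −0.56 at days 3, 6 and 9. INSIG2, which retains the SREBP complex in the endoplasmic reticulum, was the lowest at day 9 (−1.23 ± 0.08) and day 12 (−0.73 ± 0.08), and NR1H2, the beta form of the liver X receptor, the highest (0.61 ± 0.18 and 0.83 ± 0.18). INSIG1 was near 0 in HepG2 and was not tested. Of 10 acyl-CoA and triglyceride synthesis genes, 2 were higher and 5 lower at day 9, and 3 higher and 5 lower at day 12. AGPAT2, an acyltransferase of triglyceride synthesis, was highest (0.34 ± 0.13 and 0.74 ± 0.13), and PNPLA3, a lipid droplet protein, lowest (−0.97 ± 0.10 and −1.01 ± 0.10).

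Of 7 genes of substrate supply and other synthesis, 2 were higher and 2 lower at day 9, with MLYCD (0.39 ± 0.11), which breaks down malonyl-CoA, and OXSM (−0.47 ± 0.12) of mitochondrial fatty acid synthesis at the ends. At day 12 there were 1 higher, the citrate carrier SLC25A1 (0.39 ± 0.09), and 2 lower, with MID1IP1 (−0.79 ± 0.08) lowest. Of 13 other elongation and desaturation genes, 3 were higher and 1 lower at day 9, namely HSD17B12 (−0.42 ± 0.06), the ketoreductase of the elongation cycle, and FADS3 (0.47 ± 0.14) was highest. At day 12, 5 were higher and 0 lower by limma (6 at an unadjusted p under 0.05, and 4 higher and 1 lower by voom), a share near the 34% of all genes that were higher, with CYB5A, cytochrome b5, highest (0.50 ± 0.07). CYB5R3, the flavoprotein that feeds electrons to the desaturases, averaged 135 TPM in deprived and 126 TPM in control cells at day 12 (0.10 ± 0.05, adjusted p = 0.0997). At days 3, 6 and 9 its differences were 0.19 ± 0.05, −0.12 ± 0.05 and −0.05 ± 0.05, and only that of day 3 passed.

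The modifiers moved the neighbouring genes as well. In deprived cells 4 of 4 cholesterol genes were higher with AhRinh, against 18.6% of all genes. HMGCS1 was higher by 1.24 ± 0.07 and SREBF1 by 0.76 ± 0.09. For these AhRinh values, too, date and inhibitor cannot be told apart. IDO_TDOinh raised 4 of 4 too, against 16.1% of all genes, with 1.13 ± 0.09 for HMGCS1, while SREBF1 did not pass (0.12 ± 0.09, adjusted p = 0.273). AhR_gRNA raised 4 of 4 in deprived cells, against 7.53% of all genes. Between deprived and control cells HMGCS1 differed by −1.21 ± 0.07 with AhRinh and −2.01 ± 0.07 without, and by −1.80 ± 0.07 with AhR_gRNA and −2.01 ± 0.07 with Cont_gRNA. With IDO_TDOinh 0 of 4 cholesterol genes passed between deprived and control cells by limma, against 1.39% of all genes in either direction. There were 0 at an unadjusted p under 0.05 and 0 by voom. SREBF1 differed by −0.37 ± 0.09 with AhRinh and −0.67 ± 0.09 without, by −0.20 ± 0.11, adjusted p = 0.137 with AhR_gRNA and −0.26 ± 0.11, adjusted p = 0.0451 with Cont_gRNA.

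In Caco-2, 4 of 4 cholesterol genes were higher in deprived cells, with a median difference of 0.60. STARD4, a sterol carrier, was highest (0.64 ± 0.10). INSIG1, a brake on SREBP processing that is measurable in this line, averaged 465 TPM in deprived and 269 TPM in control cells (0.78 ± 0.05, adjusted p = 2.5e-06). HMGCS1 averaged 201 TPM in deprived and 136 TPM in control cells (0.55 ± 0.05). SREBF1 (0.10 ± 0.11, adjusted p = 0.529) and CYB5R3 (−0.03 ± 0.07) did not pass. Of all Caco-2 genes 14.3% were higher and 19.5% lower. Of 11 regulators 1 was higher and 1 lower, INSIG1 and NR1H3 (−0.43 ± 0.11), and of 13 other elongation and desaturation genes 3 were lower, from CYB5A (−0.51 ± 0.11) to HACD3 (−0.19 ± 0.06). The supply list had 1 of 7 higher, the malic enzyme ME1 (0.76 ± 0.06), and 4 lower, with MLYCD lowest (−0.87 ± 0.13). The triglyceride list had 1 of 10 higher, ACSL3 (0.25 ± 0.06), and 3 lower, with AGPAT2 lowest (−0.57 ± 0.08). In mouse hepatocytes with Ad_Cont, where 4.32% of all genes were higher and 5.46% lower, 4 of 13 elongation and desaturation genes were higher in deprived cells, from Elovl7 (0.66 ± 0.10) to Cyb5r3 (0.30 ± 0.06, adjusted p = 0.00367), and 2 of 12 regulators were higher, Ppara (0.50 ± 0.13) and Insig2 (0.43 ± 0.09). Gpam (0.41 ± 0.07) was higher and Dgat2 (−0.51 ± 0.12) lower in the triglyceride list, and 0 of 8 supply genes (1 at an unadjusted p under 0.05, 1 by voom) and 0 of 3 cholesterol genes (0 and 0) passed by limma. In liver, where 221 of 10574 genes were higher and 120 lower, 0 genes of the 5 lists passed by limma. At an unadjusted p under 0.05 there were 3 of 8 supply genes, 1 of 13 elongation and desaturation genes and 3 of 9 triglyceride genes. There were also 2 of 12 regulators and 1 of 3 cholesterol genes, and voom called 1 supply gene. Insig1 averaged 18.3 TPM in deprived and 32.2 TPM in Control livers (−0.80 ± 0.53, adjusted p = 0.378).

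**Figure D5:**
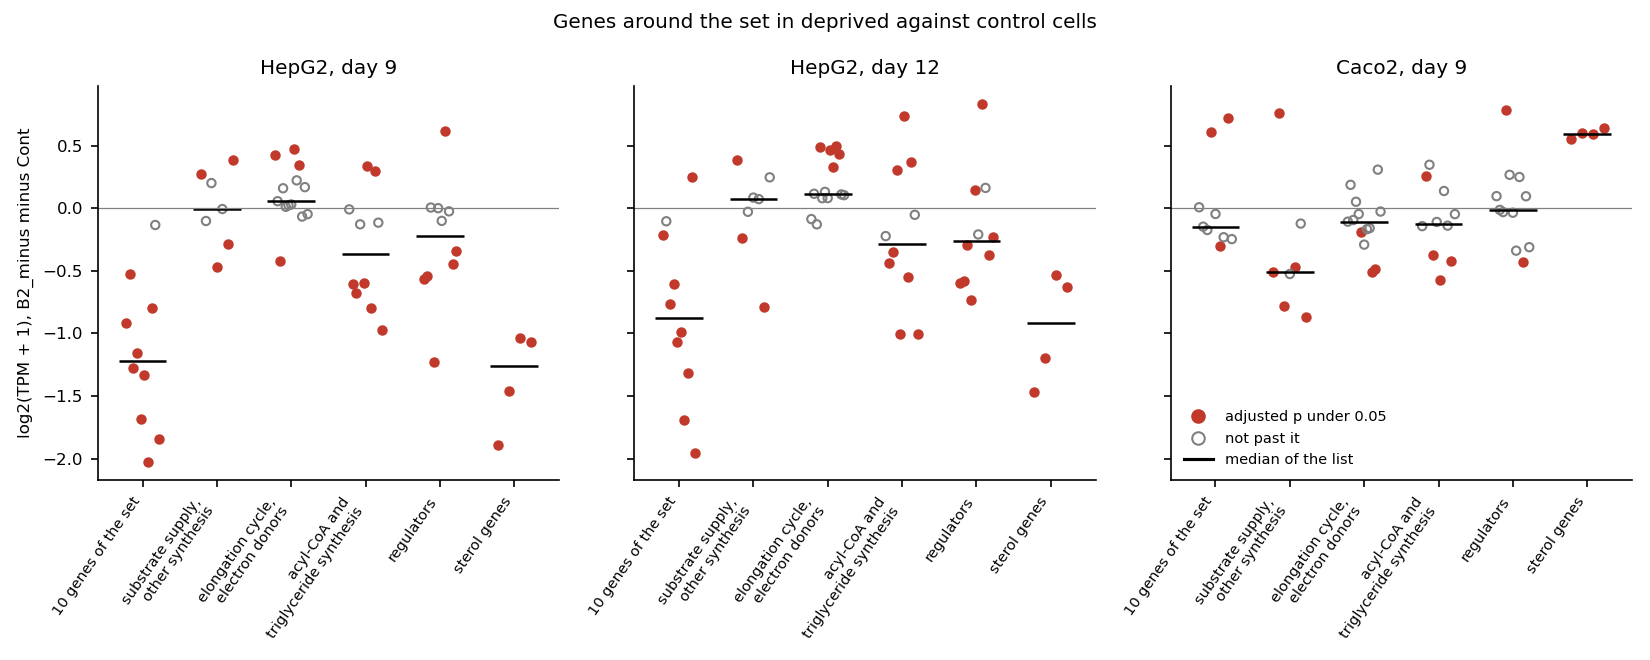
Log2(TPM + 1) differences, B2_minus minus Cont, of the 10 genes and of the genes in 5 neighbouring lists at HepG2 day 9, HepG2 day 12 and Caco-2 day 9; filled red points passed an adjusted p of 0.05, open grey points did not, and each bar is the list's median. The cholesterol genes lie below 0 at both HepG2 days, as do the 10 genes except ELOVL5 at day 12, and the cholesterol genes lie above 0 in Caco-2.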

How the data were processed

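QuantSeq 3′ mRNA-Seq libraries were read from 98 columns in 8 tables, which stand for 100 samples in 32 groups. The 8 liver columns stand for 10 labelled livers, of which 2 were not analysed here. In the headers, liver is named by archive run, and its folder lacks the trimming tag that the folders of the other tables carry. The origin and processing of the liver values may therefore differ from those of the other tables. The values are TPM as deposited by the authors, written by HOMER per the file headers. The submitters' processing notes list STAR, Bowtie2 and HOMER and the builds hg38 and mm10 without saying what each was used for. The listed genes of a library sum to 359500 to 581347 TPM, and no rescaling was made. A few abundant transcripts can therefore shift all other values of a library, which the alternatives with quantile normalization and voom address.

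Recovered reads (TPM times length over its smallest step in a library) were whole, to within 0.1, in 100% of cases for transcripts of up to 3000 bases and up to 20 reads. They numbered 6827800 to 11040400 per library in the time course, 5213400 to 6518000 in Caco-2, 5891600 to 19427900 with the AhR inhibitor, 11958200 to 14258200 with the IDO/TDO inhibitor, 6067500 to 7671300 with guide RNA, 4049600 to 5822600 with Kyn, 6263500 to 7810000 in mouse hepatocytes and 13914900 to 19644000 in liver. Over 102 replicate pairs the chi-square per gene was 1.987 to 71.07, and none was treated as a duplicate.

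Groups were taken from the labels and columns matched by name. In R 4.3.3 each table was fitted alone on log2(TPM + 1) with the packages limma 3.58.1 and statmod 1.5.0, using 1 mean per group and eBayes, its trend and robust options on. This scale understates the change of low genes. The filter kept genes at 1 TPM or above in 3 libraries (5 in liver). Tests were two-sided, with p adjusted by Benjamini-Hochberg over all genes within each of 34 contrasts and a threshold of 0.05. Not every contrast names all 10 genes. From each list around them the counts were given, with the highest and lowest gene past the threshold at HepG2 days 9 and 12, in Caco-2, in mouse hepatocytes with Ad_Cont and in liver, together with SREBF1, INSIG1, HMGCS1 and CYB5R3. Some genes of the cholesterol list are not reported here. The members and lists were chosen with earlier results of these data known. A test for counts could not be the main one because the tables hold TPM. Alternatives were a pseudocount of 0.1, no filter on low values, quantile normalization, the replicate number as a block, voom on recovered reads with median-of-ratios factors, and leaving out each library in turn. Scripts were tested on simulated data.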

Additional observations from a re-analysis of the deposited data

Results flagged for a closer look

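The 27 values here come from tests of whether the deprivation or Kyn difference itself differed between 2 settings, as an interaction term in limma past an adjusted p of 0.05. Each is a difference of log2 differences, and no explanation was weighed.

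Between day 12 and day 3 the deprivation difference of 7 genes moved in HepG2 cells. It was more negative at day 12 by −1.9472 for ELOVL6, −1.4263 for FADS2, −1.228 for ELOVL2, −0.8568 for FADS1, −0.7794 for SCD and −0.5436 for FASN, and more positive by 0.3375 for ELOVL5.

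Between deprived cells with and without the AhR inhibitor, each set against its control, the terms were 1.5304 for ACLY, 1.4186 for FADS2, 1.3331 for ACSS2, 1.2611 for SCD, 0.7603 for FADS1, 0.649 for FASN and 0.5701 for ELOVL6. ACLY is the gene whose direction differed, higher with the inhibitor and lower without it. Date and inhibitor cannot be told apart in part of this comparison, as the libraries with and without inhibitor carry different folders and dates in their headers.

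With the IDO/TDO inhibitor the terms were 1.829 for ELOVL6, 1.3963 for FADS2, 1.0966 for SCD, 1.0533 for ELOVL2, 0.7996 for ACSS2, 0.5698 for FASN, 0.3041 for FADS1 and −0.3718 for ELOVL5. ELOVL2 passed with this inhibitor and not with the AhR inhibitor, and the difference between the 2 tables was not tested.

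For the AhR guide RNA the terms were 0.7563 for ELOVL6, 0.5207 for ELOVL2 and 0.2963 for FASN. In the Kyn table they were 0.7618 for ELOVL6 and 0.4118 for ACSS2, for the Kyn difference with AhRinh minus that without.

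Among 22 liver groups of 4 (11 genes in 2 diets), no value stood apart from the others by Dixon's criterion, where chance marks about 1 in 20.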

How the results depend on the processing

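Over the 34 comparisons, the number of the 10 genes called stayed within 1.5 times in 33 of 34 with a pseudocount of 0.1, 31 of 34 with no filter, 31 of 34 under quantile normalization, 26 of 34 with voom, 33 of 33 with the replicate block and 209 of 242 on leaving out 1 library. In controls, day 12 against day 3 gave 5 calls under quantile normalization and 5 with voom in place of 9, and SCD turned to 0.0728 and 0.0436. Voom gave 5 calls in place of 3 at day 3, 3 in place of 1 for Kyn against DMSO, 5 in place of 2 in the Kyn interaction, 9 in place of 5 for AhRinh in Kyn cells and 2 in place of 1 in deprived mouse hepatocytes with Ad_Cont. With no filter, AhRinh in control cells gave 3 calls in place of 5 and the Kyn interaction 1 in place of 2. Deprivation with the IDO/TDO inhibitor gave 1 call under quantile normalization and 2 with voom in place of 0. Liver gave 0 calls with a pseudocount of 0.1, 0 with no filter, 0 under quantile normalization and 0 with voom in place of 1. Other values that turned sign were ELOVL5 in deprived cells with AhRinh against control (−0.0892 with voom), ACACA in the IDO/TDO inhibitor table (−0.2319 and −0.2937 between deprived and control cells, 0.1969 and 0.2452 for the inhibitor in deprived cells, under quantile normalization and voom) and ELOVL5 for that inhibitor in deprived cells (0.019 and 0.0783). The cause was not tested.

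Leaving out 1 library gave 1 to 2 calls at day 3, 2 to 7 for AhRinh in control cells, 4 to 6 for AhR_gRNA in deprived cells, 1 to 3 for Kyn against DMSO, 2 to 4 for that comparison with AhRinh, 1 to 2 in the Kyn interaction and 3 to 5 for AhRinh in Kyn cells. It gave 0 to 2 in deprived mouse hepatocytes with Ad_Cont (0 without replicate 3 of either group), 0 to 1 for Ad_Cre in deprived hepatocytes (1 without replicate 1 of the deprived Ad_Cont cells) and 0 to 1 in liver (1 without column 4 of the deprived livers).

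Scaling moves the balance of higher and lower genes. The share of higher genes among all calls was 64.9% at HepG2 day 12 and 51.7% under quantile normalization, 59.8% and 50.3% at day 9, 72.5% and 51.9% in the AhR inhibitor table without AhRinh, 78.4% and 53.7% with it, 78.9% and 52.9% in the IDO/TDO inhibitor table without the inhibitor, 71.8% and 52.2% with Cont_gRNA, 70.7% and 51.4% with AhR_gRNA, 42.3% and 51.0% in Caco-2, and 64.8% and 35.3% in liver.

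Whether the replicate numbers pair the samples is not known. Same-numbered libraries of different groups had correlations of −0.108 to 0.187 in their deviations from the group means, which cannot decide it. Libraries closest to their own number were 11 of 24 in the time course, 0 of 6 in Caco-2 and 7 of 12 with the AhR inhibitor. They were 4 of 12 with the IDO/TDO inhibitor, 2 of 12 with guide RNA, 7 of 12 with Kyn and 4 of 12 in mouse hepatocytes. With the replicate block the count of calls stayed at 3 at day 3 and 9 at day 9, and the 4 single calls it changed stand beside their results. The block could not be fitted in liver, because its columns carry no animal number. Depth, at 4049600 reads for the shallowest library, leaves ELOVL2 in Caco-2 (0 to 7 reads) unmeasured.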
